A study of Mus musculus with 8 samples.

Results

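The 10 genes described here encode the costimulatory and inhibitory ligands that antigen-presenting cells show to T cells. They are Cd80, Cd86, Icosl, Cd274 and Pdcd1lg2 of the B7 family, Cd40, Cd70, Tnfsf4 and Tnfsf9 of the TNF ligand and receptor families, and Cd83. They were picked by gene symbol as a family, by a rule that names no measured value, and all 10 were found among the 13786 genes of the count table. A T cell that meets antigen on MHC also reads such ligands on the same cell, and they set how strongly it answers. CD80 and CD86 bind CD28 and CTLA-4, ICOSL binds ICOS, and PD-L1 (Cd274) and PD-L2 (Pdcd1lg2) bind the inhibitory receptor PD-1. CD40 is a receptor on the antigen-presenting cell that receives CD40 ligand from T cells and drives the maturation of dendritic cells, while CD70, OX40 ligand (Tnfsf4) and 4-1BB ligand (Tnfsf9) act on CD27, OX40 and 4-1BB.

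RNA was sequenced from CD11c-positive splenocytes of female mice at 7 weeks of age, 4 of strain C57BL/6 and 4 of strain B6.SLE123, all from The Jackson Laboratory and none treated. B6.SLE123 mice are C57BL/6 mice that carry the lupus susceptibility loci Sle1, Sle2 and Sle3 of a lupus-prone strain, so the groups differ at 3 chromosomal segments together and not at a single gene, and at this age the strain has not yet developed overt disease. The comparison asks how the transcripts of these cells differ between the strains before disease. The strain of each mouse was taken from the sample name, because the genotype entry in the labels counts upward from mouse to mouse within each strain.

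Library totals ran from 25761789 to 32931045 counts in the C57BL/6 mice and from 25563070 to 37367094 counts in the B6.SLE123 mice, and the first principal component, which separated the strains, held 87.2% of the variance. The strains were compared with edgeR (quasi-likelihood test, Benjamini-Hochberg over all genes). At an adjusted p below 0.05, 26.7% of genes (3683) rose in B6.SLE123, 26.6% (3673) fell, and 53.4% thus differed. The labels call the cells dendritic cells, and the markers of conventional dendritic cells were abundant, with Itgax, which encodes CD11c, at 1329 ± 77.9 CPM (SD, n = 4; CPM scales the counts of each mouse to the same library total) in C57BL/6 and 1543 ± 93.4 in B6.SLE123. RNA of other cells was present too. The 9 red pulp macrophage markers summed to 10500 to 13300 CPM per mouse in C57BL/6 and to 1500 to 2950 in B6.SLE123, and all 9 were lower. The 9 B cell markers summed to 545 to 649 and 375 to 465 CPM, and 7 of 9 were lower, while 6 of 8 type 1 dendritic cell markers and 7 of 7 proliferation markers were higher. None of the markers of macrophages, B cells or type 1 dendritic cells was at 0 in any mouse. In bulk RNA, fewer cells of a type cannot be told apart from less RNA per cell, and the part of these shifts in the results that follow was not tested.

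Of the 10 ligand genes, 4 were higher in B6.SLE123 (Cd40, Icosl, Cd70 and Tnfsf9), 1 was lower (Cd86), and 5 did not pass the test (Cd80, Cd274, Pdcd1lg2, Tnfsf4 and Cd83). The share that differed, 50%, was close to the 53.4% of all genes. The median log2 fold change of the 10 genes, B6.SLE123 over C57BL/6, was 0.205, beside -0.00191 over all genes. For 3 genes, Cd40, Cd70 and Tnfsf9, the 4 values of each strain did not overlap, which is 30% of the ligand genes against 48.9% of all genes. The differences were small: the fold changes lay between 0.797 and 1.88. Their joint level, summed per mouse, was 1420 to 1490 CPM in C57BL/6 and 1440 to 1640 CPM in B6.SLE123, which overlapped.

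**Figure D1:**
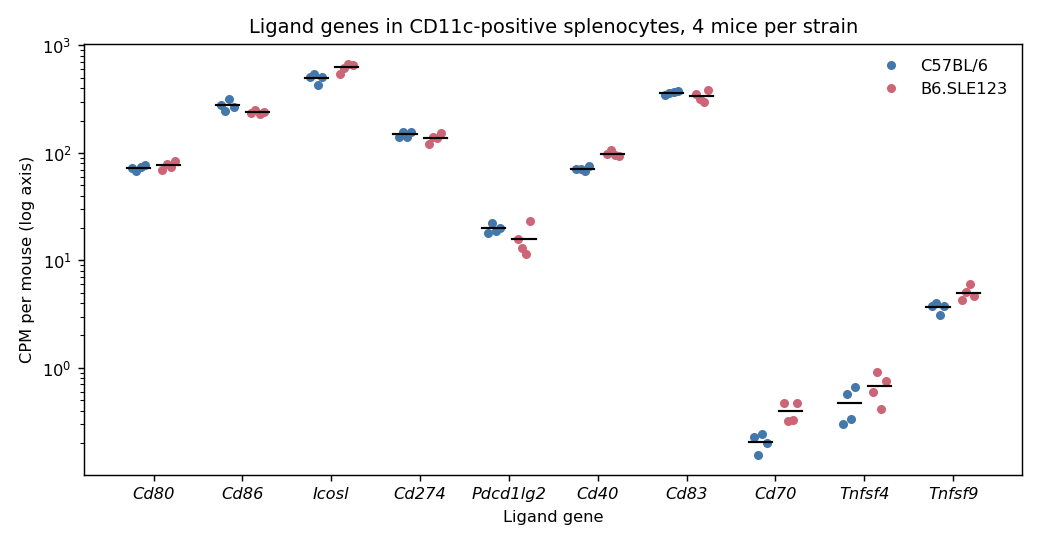
Level of each ligand gene in each mouse, in CPM on a log axis, with 1 point per mouse (4 C57BL/6, 4 B6.SLE123) and a bar at the strain mean. Cd40, Cd70 and Tnfsf9 show no overlap between the strains, and the levels run from 0.206 CPM for the C57BL/6 mean of Cd70 to 625 CPM for the B6.SLE123 mean of Icosl.

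Levels can be compared between genes once they are divided by exonic length. On that scale, CPM per kb, Cd83 (140.7 ± 5.04, SD, n = 4) and Icosl (107.9 ± 10.6) led in C57BL/6 mice, followed by Cd86 (75.7 ± 8.32) and Cd274 (41.1 ± 2.43). Cd40 (20.8 ± 0.961) and Cd80 (19.6 ± 1.13) came next with overlapping ranges, then Pdcd1lg2 (10.1 ± 1.02) and Tnfsf9 (2.84 ± 0.303). Tnfsf4 (0.255 ± 0.0962) and Cd70 (0.244 ± 0.047) were near the bottom of detection and overlapped. The order in B6.SLE123 mice was similar, with 3 exceptions among neighbours. Icosl (135.3 ± 13.4 CPM per kb) and Cd83 (131.6 ± 14.7) overlapped there, Cd40 (28.8 ± 1.52) stood clear of Cd80 (20.8 ± 1.76), and Cd70 (0.474 ± 0.103) and Tnfsf4 (0.363 ± 0.115) overlapped in the opposite order. The dominant transcripts of this class in both strains were therefore those of Cd83, which stabilizes MHC class II and CD86 at the cell surface, and of the ICOS ligand.

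Of the B7 ligands of CD28 and CTLA-4, Cd86 was lower and Cd80 did not pass the test. Cd80 (chr16:38455561-38496335, plus strand, mm10) was at 72.65, 67.3, 73.4 and 77.5 CPM in the 4 C57BL/6 mice and at 69.6, 79.3, 74.5 and 84.9 CPM in the 4 B6.SLE123 mice. The strains overlapped, and the log2 fold change was 0.08 (SE 0.06, 95% interval -0.06 to 0.23, adjusted p = 0.305 by edgeR), with an interval of the fold of 0.959 to 1.17. Cd86 (chr16:36603869-36666081, minus strand) was at 278.5, 244, 318 and 268 CPM in C57BL/6 and at 237, 250, 229.5 and 238 CPM in B6.SLE123. The mouse with the lowest C57BL/6 value lay within the B6.SLE123 range, and the C57BL/6 mice were the more variable, with 277 ± 30.5 CPM (SD, n = 4) beside 239 ± 8.65. Cd86 fell by 0.22 on the log2 scale (SE 0.07, fold 0.861, adjusted p = 0.0232 by edgeR). This call did not stand in 3 of 8 fits that left out a mouse, namely without C57BL/6 replicate 1 (adjusted p = 0.0503), C57BL/6 replicate 3 (0.0558) or B6.SLE123 replicate 3 (0.0561).

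Since both ligands bind the same receptors, their balance was also taken within each mouse, where library scaling cancels. Log2 Cd80 minus log2 Cd86 was -1.94, -1.86, -2.11 and -1.79 in C57BL/6 mice and -1.76, -1.66, -1.62 and -1.49 in B6.SLE123 mice. Every B6.SLE123 mouse lay above every C57BL/6 mouse. The means were -1.92 ± 0.138 and -1.63 ± 0.114 (SD, n = 4), a difference of 0.291 with an exact two-sided permutation p of 0.0286, the smallest that 4 mice against 4 can give, and of 0.0858 after adjustment over the 3 balances compared. The difference therefore did not pass the correction.

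**Figure D2:**
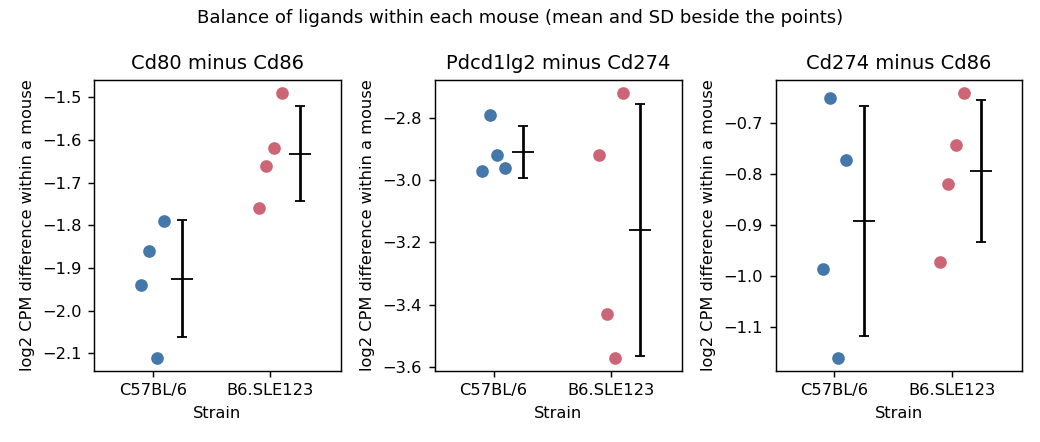
Difference of 2 ligand genes within each mouse, in log2 CPM, for Cd80 minus Cd86, Pdcd1lg2 minus Cd274 and Cd274 minus Cd86, with 1 point per mouse and the mean with its SD beside the points; the vertical axes differ between panels and do not start at 0. Only the first panel shows strains that do not overlap, with means of -1.92 and -1.63.

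Icosl, the ligand of ICOS on activated and follicular helper T cells, was the most abundant of the higher genes. Icosl (chr10:78069302-78083913, plus strand) was at 509, 545, 430 and 509 CPM in C57BL/6 and at 539, 623, 678 and 661 CPM in B6.SLE123. B6.SLE123 replicate 1 lay just under the highest C57BL/6 mouse, and the other B6.SLE123 mice were above all C57BL/6 mice. Icosl was 1.25-fold higher (log2 fold change 0.33, SE 0.08, adjusted p = 0.00702 by edgeR) and passed the test in 8 of 8 fits that left out a mouse. Its promoter is printed here because it is the only gene among the 5 that passed the test for which the RefSeq promoter table (GRCm38.p6) held an entry, as the 250 bases before and 50 after the start of the transcript at chr10:78069118-78069417 on the plus strand. With 68.0% GC and 26 CpG dinucleotides, against medians of 52.7% and 7 over 32851 promoters, it is CpG-rich, and it held no match to the 6 motifs searched.
Icosl promoter: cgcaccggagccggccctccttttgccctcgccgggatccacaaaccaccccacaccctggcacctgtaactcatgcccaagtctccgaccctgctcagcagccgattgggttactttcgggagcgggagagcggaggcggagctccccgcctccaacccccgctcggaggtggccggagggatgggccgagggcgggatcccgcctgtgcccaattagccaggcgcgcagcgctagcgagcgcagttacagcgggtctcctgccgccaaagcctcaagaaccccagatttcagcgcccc

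The PD-1 ligands did not pass the test. Cd274 (chr19:29367455-29388095, plus strand) was at 140.5, 156, 142 and 157 CPM in C57BL/6 and at 121, 142, 137 and 153 CPM in B6.SLE123, with a log2 fold change of -0.11 (95% interval -0.26 to 0.04, adjusted p = 0.211 by edgeR). Pdcd1lg2 (chr19:29410919-29471161, plus strand), which lies 22.8 kb from Cd274, was at 17.9, 22.5, 18.7 and 20.1 CPM in C57BL/6 and at 15.85, 13.1, 11.5 and 23.1 CPM in B6.SLE123. Here 3 B6.SLE123 mice were below all C57BL/6 mice and B6.SLE123 replicate 4 was above them all, so the SD was 1.998 CPM in C57BL/6 and 5.14 CPM in B6.SLE123. The log2 fold change of Pdcd1lg2 was -0.33 (95% interval -0.73 to 0.07, adjusted p = 0.149 by edgeR), and without that mouse it was -0.565 with an adjusted p of 0.00212. The same mouse decided Cd274, at -0.172 (adjusted p = 0.0486) without it. Log2 Pdcd1lg2 minus log2 Cd274 within a mouse had means of -2.91 ± 0.0833 and -3.16 ± 0.404 (exact permutation p = 0.371), and log2 Cd274 minus log2 Cd86, an inhibitory against a costimulatory ligand, had means of -0.892 ± 0.227 and -0.794 ± 0.14 (exact permutation p = 0.457). Both genes overlap an unlisted gene on the opposite strand (AC119228.1 and A930007I19Rik), and the sources used here do not give the strand setting of the counting.

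The promoters of these neighbours are shown side by side because the genes lie next to each other and bind the same receptor. They cover chr19:29367188-29367487 for Cd274 and chr19:29410669-29410968 for Pdcd1lg2, on the plus strand of GRCm38.p6. Capitals mark motif matches. The Cd274 window had 52.7% GC and 15 CpG and held no match, while the Pdcd1lg2 window had 46.0% GC and 3 CpG and held an NF-kB motif that begins at position -244, where -1 is the base before the start, and the PU.1 core GAGGAA read on the opposite strand at -82.
Cd274 promoter: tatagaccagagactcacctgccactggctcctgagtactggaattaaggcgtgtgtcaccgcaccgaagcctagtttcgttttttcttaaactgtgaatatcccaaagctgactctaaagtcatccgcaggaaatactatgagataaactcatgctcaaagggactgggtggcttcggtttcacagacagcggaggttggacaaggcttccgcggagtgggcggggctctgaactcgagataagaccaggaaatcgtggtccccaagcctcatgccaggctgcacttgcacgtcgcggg
Pdcd1lg2 promoter: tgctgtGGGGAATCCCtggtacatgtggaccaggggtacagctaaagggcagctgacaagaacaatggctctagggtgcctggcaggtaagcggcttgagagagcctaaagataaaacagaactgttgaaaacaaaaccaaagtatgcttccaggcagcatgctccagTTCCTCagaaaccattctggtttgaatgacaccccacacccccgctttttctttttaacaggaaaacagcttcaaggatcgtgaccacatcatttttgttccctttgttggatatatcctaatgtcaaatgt

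The motifs were searched on both strands as the PU.1 core GAGGAA, found in 28.3% of all RefSeq promoters of this length, the NF-kB motif (4.51%), the AP-1 motif TGANTCA (7.81%), the interferon response element core (3.44%), the GAS element TTCNNNGAA (8.3%) and the TATA box TATAAA (13.6%). The promoter of Cd80 held an AP-1 match at -42 and a TATA box on the opposite strand at 5. A match is only a run of letters and no evidence of binding. The table held promoters of 4 of the 10 genes.

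CD40 gave the clearest difference of the 10 genes. Cd40 (chr2:165055627-165072948, plus strand) was at 70.3, 70.6, 67.15 and 75.1 CPM in C57BL/6 and at 96.7, 106, 95.7 and 94.3 CPM in B6.SLE123. All 4 B6.SLE123 mice were well above all 4 C57BL/6 mice, and both strains were tight, with means of 70.8 ± 3.27 and 98.1 ± 5.18 CPM (SD, n = 4). Cd40 was 1.39-fold higher (95% interval 1.28 to 1.5, log2 fold change 0.47, SE 0.05, adjusted p = 2.05e-05 by edgeR), and it passed the test in 8 of 8 fits without a mouse. Cd83 (chr13:43784775-43803132, plus strand), a glycoprotein that appears on dendritic cells as they mature, did not move with Cd40. It was at 344, 362, 369 and 373 CPM in C57BL/6 and at 353, 321, 297 and 384 CPM in B6.SLE123, which overlapped, with a log2 fold change of -0.10 (95% interval -0.25 to 0.06, adjusted p = 0.276 by edgeR). Without B6.SLE123 replicate 4, the highest mouse for Cd83 as for Pdcd1lg2 and Cd274 in its strain, Cd83 was at -0.173 with an adjusted p of 0.0387.

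The TNF family ligands were the least abundant, and those that differed were higher in B6.SLE123. Tnfsf9 (chr17:57105325-57107757, plus strand), whose product 4-1BB ligand sustains activated CD8 T cells, had 99, 105, 102 and 114 counts in C57BL/6 and 135, 188, 204 and 118 in B6.SLE123. Scaled for depth these were 3.75, 4.03, 3.11 and 3.77 CPM against 4.27, 5.05, 6.04 and 4.645 CPM, without overlap. Tnfsf9 was 1.37-fold higher (95% interval 1.11 to 1.69, adjusted p = 0.0165 by edgeR), and the call did not stand without C57BL/6 replicate 3 (adjusted p = 0.0516) or B6.SLE123 replicate 3 (0.0505). It overlaps an unlisted gene on the opposite strand, Gm11110.

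Cd70 (chr17:57145997-57149777, minus strand), the CD27 ligand, lies 38.2 kb from Tnfsf9 and had 6, 4, 8 and 6 counts in C57BL/6 and 15, 12, 11 and 12 in B6.SLE123. The strains did not overlap, but each value rested on 15 counts or fewer. The fold was 1.88 with a wide 95% interval of 1.17 to 3.04 (adjusted p = 0.0294 by edgeR), and it was lost in 4 of 8 fits without a mouse, those without C57BL/6 replicate 2 or 4 or B6.SLE123 replicate 1 or 4 (adjusted p up to 0.0734), and by DESeq2 (adjusted p = 0.109). Tnfsf4 (chr1:161395409-161418410, plus strand), the ligand of OX40, had 8, 15, 11 and 20 counts in C57BL/6 and 19, 34, 14 and 19 in B6.SLE123, which overlapped. Its log2 fold change was 0.51 with an interval from -0.24 to 1.27 (adjusted p = 0.228 by edgeR). All 10 genes had a median of at least 5 counts in each strain, the lowest value of the larger strain median in the table, and 8 had at least 10 counts in every mouse, Cd70 and Tnfsf4 being the exceptions.

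**Figure D3:**
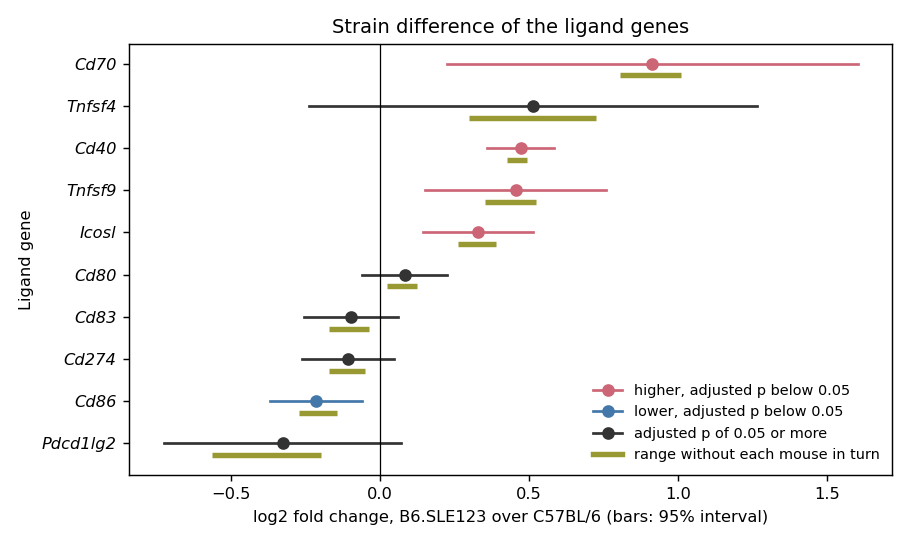
Log2 fold change of each ligand gene, B6.SLE123 over C57BL/6, with its 95% interval (thin bar) and the range of the value when each mouse is left out in turn (thick bar), colored by the edgeR call. The 4 higher genes lie between 0.33 for Icosl and 0.91 for Cd70, Cd86 is at -0.22, and no range over left-out mice crosses 0.

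The receptors on the T cell side were detected in the same preparation. Of 9 receptor genes, 2 were higher, 1 was lower and 6 did not pass the test, beside 53.4% of all genes that differed, and their median log2 fold change was 0.108. Tnfrsf4, which encodes OX40, rose from 11.6 ± 0.875 to 15.2 ± 1.66 CPM (log2 fold change 0.39, SE 0.09, adjusted p = 0.00347 by edgeR), and Tnfrsf9, which encodes 4-1BB, rose from 5.75 ± 0.596 to 9.30 ± 2.43 CPM (0.68, SE 0.17, adjusted p = 0.00494), both without overlap. Tnfrsf9 overlaps Camta1, so its reads are uncertain without the strand setting. Rgmb, another partner of PD-L2, fell by 0.22 on the log2 scale, from 25.6 ± 1.497 to 22.0 ± 0.802 CPM (adjusted p = 0.00815).

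The other 6 partner genes did not pass. Cd28 was at 2.13 ± 0.945 and 2.05 ± 0.515 CPM (adjusted p = 0.887), Pdcd1, which encodes PD-1, at 0.615 ± 0.213 and 0.978 ± 0.266 CPM (adjusted p = 0.0668), and Cd27 at 6.62 ± 1.01 and 5.37 ± 0.516 CPM (adjusted p = 0.0705). Ctla4 was at 0.454 ± 0.219 and 0.492 ± 0.184 CPM (adjusted p = 0.84 by edgeR), with a mean of 14.5 counts per library. Cd40lg, the CD40 ligand, was at 0.230 ± 0.0811 and 0.119 ± 0.0539 CPM (adjusted p = 0.102 by edgeR), with a mean of 5.1 counts. Per length, Icos was at 10.3 CPM per kb in C57BL/6 and 11.2 in B6.SLE123, close to Tnfrsf4 at 8.48 and 11.2 CPM per kb, beside 1.01 and 0.718 for the T cell marker Cd3e, 1.52 and 1.22 for Cd3d and 1.15 and 0.992 for Cd3g. The level of Icos did not pass the test between strains (35.3 ± 2.45 and 38.2 ± 2.62 CPM, adjusted p = 0.151 by edgeR). The annotated gene Gm37039 overlaps Icos. The T cell marker list summed to 271 to 313 CPM in C57BL/6 and 271 to 375 CPM in B6.SLE123, most of it from Cd4, which dendritic cells also express.

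A companion list of 19 other genes that act beside these 10 was mixed. Besides ligands of the B7, butyrophilin and TNF families it held others, such as Nectin2, Icam1, Cd48 and the TNF receptor gene Tnfrsf14. Of the 19 genes, 9 were lower and 6 higher, beside 26.6% lower and 26.7% higher among all genes, and 4 did not pass. Their median log2 fold change was -0.257. Their summed level was 1050 to 1170 CPM in C57BL/6 and 895 to 959 CPM in B6.SLE123, without overlap. Abundant genes weigh most in this sum. Vsir alone fell from a mean of 365 to 188 CPM, while Icam1 rose from 340 to 398 CPM. The sum is therefore no measure of the list as a whole, and a sum without Vsir was not taken. Vtcn1 and Btn1a1 were also on the list but were not found among the 13786 genes of the count table. The 4 with the largest change were Tnfsf18, the GITR ligand (-2.52, SE 0.33, from 4.55 ± 1.31 to 0.827 ± 0.482 CPM, adjusted p = 7.86e-05 by edgeR), Nectin2, a ligand of TIGIT and CD226 (-1.73, SE 0.19, adjusted p = 2.9e-05), Fasl, the death ligand (1.14, SE 0.15, from 3.48 ± 0.539 to 7.66 ± 1.35 CPM, adjusted p = 9.52e-05), and Btn2a2, an inhibitory butyrophilin (0.97, SE 0.23, adjusted p = 0.00466). Btn2a2 was at a low level, with 0.41 ± 0.0611 CPM in C57BL/6 and 0.803 ± 0.0925 CPM in B6.SLE123. Among the abundant ones, Vsir and Icam1 were named after their values were seen. The checkpoint gene Vsir fell by 0.96 on the log2 scale, from 365 ± 41.0 to 188 ± 15.4 CPM (adjusted p = 4.38e-06 by edgeR). The adhesion ligand Icam1 rose by 0.23 (adjusted p = 0.000977 by edgeR).

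CD40 signals through TRAF adaptors to NF-kB, which in turn drives several of the ligand genes. Of 19 genes of this pathway 6 were higher, 2 lower and 11 did not pass, and the median log2 fold change was 0.0785. The 4 with the largest change all rose, by modest amounts: Relb, the NF-kB subunit of the CD40 branch (0.32, SE 0.07, from 427 ± 31.6 to 534 ± 43.8 CPM, adjusted p = 0.00216 by edgeR), Nfkb1 (0.32, SE 0.05, adjusted p = 0.000448), the adaptor Traf3 (0.30, SE 0.05, adjusted p = 0.00043) and the feedback inhibitor Tnfaip3 (0.29, SE 0.05, adjusted p = 0.000971). The share called higher, 6 of 19, was near the 26.7% of all genes, while 2 of 19 were lower beside 26.6% of all genes. The summed level, in which abundant genes weigh most, was 4280 to 4620 CPM in C57BL/6 and 4750 to 5140 CPM in B6.SLE123, without overlap.

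Some ligands are also set at the protein level. MARCH1 and MARCH8 are ubiquitin ligases that remove CD86 and MHC class II from the surface, and CMTM6 and CMTM4 protect PD-L1 from degradation. March8 fell by 1.82 on the log2 scale (SE 0.11, from 30.9 ± 2.98 to 8.79 ± 1.46 CPM, adjusted p = 6.26e-07 by edgeR) and Cmtm4 by 1.56 (SE 0.09, from 50.5 ± 3.89 to 17.1 ± 2.40 CPM, adjusted p = 5.44e-07), both without overlap. The more abundant March1 (242 ± 5.66 and 260 ± 13.4 CPM, adjusted p = 0.068) and Cmtm6 (adjusted p = 0.632) did not pass. March8 and Cmtm4 fell between the strains, as did the red pulp macrophage markers, whose median log2 fold change was -2.45, and 26.6% of all genes. Whether they follow those markers from mouse to mouse, and the part of those cells in the difference, was not tested.

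The genes listed here for mature, migratory dendritic cells were mostly higher in B6.SLE123. Of 24 genes of this program, which holds none of the 10 ligands, 18 were higher, 1 was lower and 5 did not pass, so 75% were higher beside 26.7% of all genes. The ligand genes left out of it include Cd83, which also appears as dendritic cells mature and did not pass (-0.10). Of all 10 ligand genes, 4 were higher, 1 was lower and 5 did not pass. The median log2 fold change was 0.45, and the summed level was 2870 to 3310 CPM in C57BL/6 and 3860 to 4400 CPM in B6.SLE123. The largest changes were those of Serpinb6b, a protease inhibitor with close paralogs (1.28, SE 0.12, from 74.8 ± 2.69 to 182 ± 36.1 CPM, adjusted p = 5.6e-06 by edgeR), Ido1, a tryptophan-degrading enzyme (1.14, SE 0.19, adjusted p = 0.000463), the chemokine Ccl22 (from 28.5 ± 2.52 to 56.9 ± 10.5 CPM, adjusted p = 3.63e-05) and Lad1 (0.90, SE 0.12, adjusted p = 0.000113). Fscn1, the actin bundler of mature dendritic cells, and Ccr7, the receptor that guides them to T cell zones, were named after their values were seen and rose by 0.82 and 0.39. The gene that fell was Il15 (-0.39, adjusted p = 0.00167 by edgeR). Ido1 was at a low level, with 0.724 ± 0.0986 CPM in C57BL/6 and 1.59 ± 0.176 CPM in B6.SLE123. The markers of conventional dendritic cells were higher too, in 5 of 6 genes with a median of 0.298. Of the 8 type 1 dendritic cell markers, 6 were higher and 1 lower, with a median of 0.87. The part of these cells in the rise of the program was not tested.

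**Figure D4:**
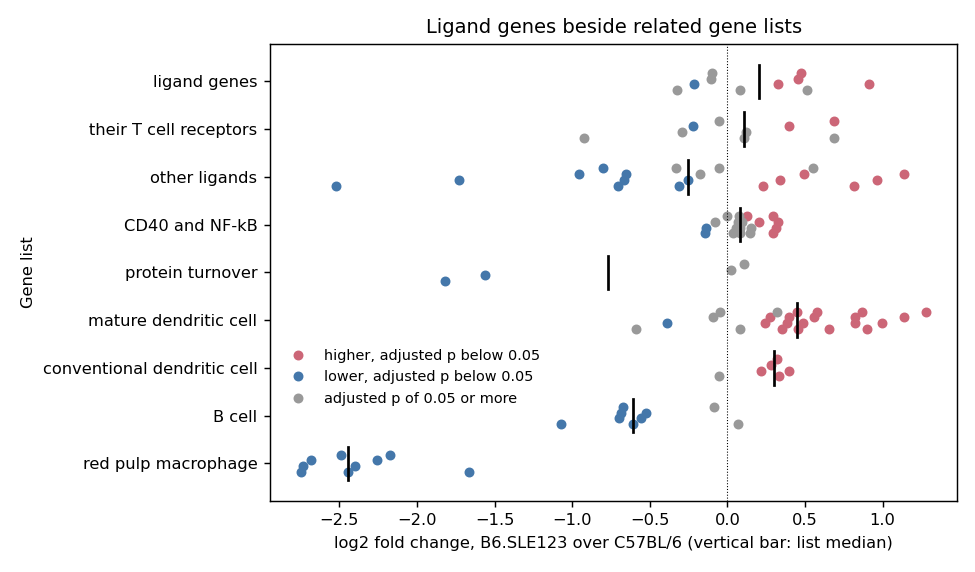
Log2 fold change of each gene, B6.SLE123 over C57BL/6, for the 10 ligand genes and 8 other gene lists, with 1 point per gene colored by the edgeR call and a vertical bar at the list median. The ligand genes center on 0.205, the mature dendritic cell genes on 0.45, and the red pulp macrophage markers on -2.45.

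Because the cell markers shifted between strains, the ligand genes were also set relative to the mean log2 CPM of conventional dendritic cell markers and of B cell markers in the same mouse, a comparison added after the data were seen. The dendritic cell reference was itself 0.248 higher and the B cell reference 0.54 lower in B6.SLE123. Relative to the dendritic cell markers, Cd40 was still higher in every B6.SLE123 mouse than in any C57BL/6 mouse (0.222), and Cd86 (-0.458), Cd274 (-0.36) and Cd83 (-0.351) were lower in every one (exact permutation p = 0.0286 each, 0.0477 after adjustment over 20 comparisons). Those 20 comparisons pooled both references, and 8 with the same p were relative to the B cell markers, whose own level fell. The adjusted value therefore rests on them too, and the dendritic cell comparisons were not adjusted alone. Cd40, Cd86, Cd274 and Cd83 are thus not called as passing a correction on the dendritic cell scale. The other 6 genes overlapped between the strains on this scale, with Icosl at 0.0784, Tnfsf9 at 0.188, Cd70 at 0.519 and Cd80 at -0.167. Relative to the B cell markers, 8 of 10 genes were higher without overlap, from Cd86 (0.33) to Cd70 (1.31), and Pdcd1lg2 (0.178) and Tnfsf4 (1.01) overlapped. Cd40 was the gene that was higher without overlap on all 3 scales, whereas the direction of Cd80, Cd86, Cd274, Pdcd1lg2 and Cd83 depended on the scale. Other marker lists were not used as a reference. Among them, the type 1 dendritic cell markers (median log2 fold change 0.87) and the proliferation markers (0.97) rose more than Cd40 (0.47).

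**Figure D5:**
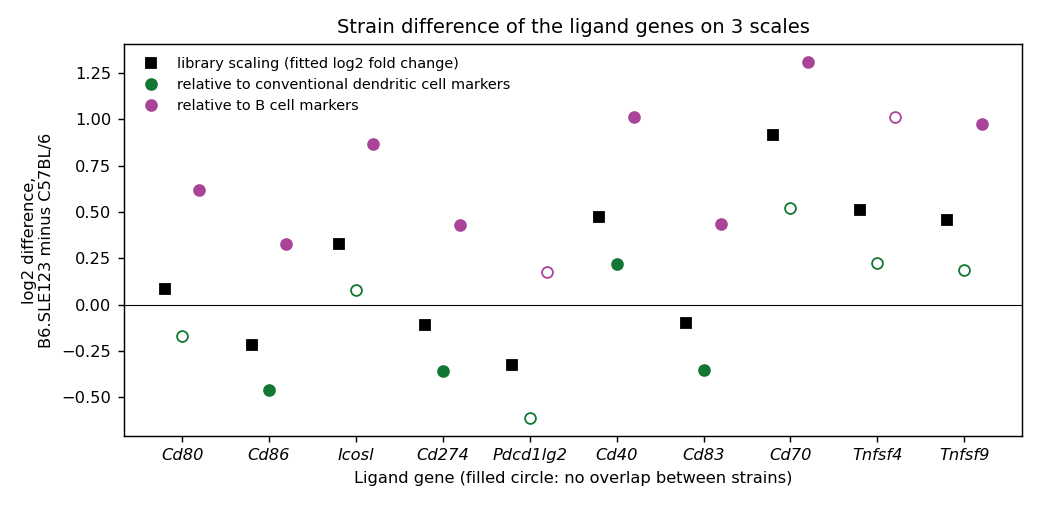
Strain difference of each ligand gene in log2 units, B6.SLE123 minus C57BL/6, as fitted with library scaling (squares), relative to the conventional dendritic cell markers and relative to the B cell markers of the same mouse (circles, filled where the strains do not overlap). Cd40 lies above 0 on all 3 scales, from 0.222 to 1.01, and Cd86 runs from -0.458 to 0.33.

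Several ligand genes share a chromosomal neighborhood, since Cd274 lies close to Pdcd1lg2 and Tnfsf9 close to Cd70, and Cd86 and Cd80 lie 1.79 Mb apart on chromosome 16. Within 500 kb of them were 116 other genes of the table, of which 30 were higher, 32 lower and 54 did not pass, so 53.4% differed, the share of all genes. The windows differed in their counts: Cd83 had 5 such neighbors (2 higher, 2 lower) and Cd40 had 21 (2 higher, 8 lower). Tnfsf4 had 10 such neighbors, 6 of them higher and 1 lower. They included the related ligand genes Tnfsf18 (chr1:161494655-161505290, -2.52) and Fasl (chr1:161780689-161788495, 1.14), which moved in opposite directions while Tnfsf4 itself was at 0.51 and did not pass. Likewise Tnfsf14, which encodes LIGHT and lies near Cd70 and Tnfsf9, fell by 0.80 where these rose. The boundaries of the introgressed segments are not given in the sources used here, and how well reads of the donor alleles map was not tested.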

How the data were processed

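RNA of CD11c-positive splenocytes was prepared with the RNeasy Micro Kit and made into libraries with a stranded mRNA kit. Per the methods and the labels, the authors checked reads with FastQC, trimmed them with cutadapt, used STAR for alignment to mm10, and obtained gene counts from featureCounts; versions and the strand setting are not given in the sources used here. The deposited table holds raw counts per gene and mouse. Its other columns hold the authors' DESeq2 comparison (mean normalized signal, log2 fold change with its standard error, the test score, p-values and the fold change as a ratio), as deposited by the authors, and were not used. For 19 genes whose symbol read as a date, the symbol was looked up again by identifier.

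For 13786 genes, TMM-scaled counts entered the quasi-likelihood test of edgeR 4.0.16 under R 4.3.3 without covariates or a further filter, with Benjamini-Hochberg adjustment over all genes and a threshold of 0.05. Differences within a mouse used log2 CPM with a prior count of 2 and exact two-sided permutation tests (scipy 1.17.1). Alternatives were relative log expression factors, genes with at least 10 counts in every mouse, limma-voom (limma 3.58.1), DESeq2 1.42.0, a block for the replicate number, a prior count of 0.5, and leaving out each mouse. The fit was tested on simulated data. Exonic lengths, strands and overlapping genes came from GENCODE M21, whose coordinates matched those of all 10 genes. Each pair of mice within a strain differed beyond sampling noise (chi-square per degree of freedom of at least 5.15), and p-values measure the spread between these mice.

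The ligand genes and all other lists were chosen with earlier results of these data known. The named genes were the 10 ligand genes, their binding partners, the 4 called genes with the largest change in each companion list, the genes of protein turnover, the most abundant gene of each marker list and, for each ligand gene with a mean of at least 100 counts, the most similar gene. Other experiments of the study were not analysed here.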

Additional observations from a re-analysis of the deposited data

Results flagged for a closer look

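In groups of 4 mice, a single value lay far from the other 3 in 3 of 80 groups checked, where chance flags about 1 in 20 groups, or 4. For Rgmb, C57BL/6 replicate 2 was at 4.55 log2 CPM beside 4.72 to 4.73 in the others, and B6.SLE123 replicate 1 was at 4.38 beside 4.49 in each of the others, and both fell on the low side. The mean of the neutrophil markers was 1.16 log2 CPM in B6.SLE123 replicate 3 beside 1.99 to 2.09 in the others. No ligand gene was among them.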

How the results depend on the processing

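The count of ligand genes called higher, 4, stayed within 1.5 times under every alternative run. The count called lower, 1, ranged from 0 to 4 over the fits without a mouse: it was 0 without C57BL/6 replicate 1, C57BL/6 replicate 3 or B6.SLE123 replicate 3, when Cd86 no longer passed, and 4 without B6.SLE123 replicate 4, when Cd274, Pdcd1lg2 and Cd83 passed as well. Of 128 values for single ligand genes under an alternative, 114 stayed on the same side of the threshold, 11 lost the call, 3 gained it and 0 changed direction. Between mice of the 2 strains with the same replicate number, the correlation of deviations was 0.076, 0.231, 0.096 and 0.122 for the 4 numbers. Mice with unlike numbers were not compared, so these values cannot tell whether the numbers pair the mice. With the replicate block, 7183 genes passed instead of 7356, and Cd70 did not (log2 fold change 0.92, adjusted p = 0.0545). By DESeq2, Cd70 had an adjusted p of 0.109 over a range of 0.0298 to 0.109 for its alternatives, and it could not be fitted among genes with at least 10 counts in every mouse. In the list of CD40 and NF-kB genes, the count called lower went from 2 to 0 or 1 in 5 fits without a mouse and to 1 with the replicate block. Cd70 and Tnfsf4 had at most 34 counts in a mouse, and the shares of depth and of the spread between mice in their wide intervals were not tested. The number of genes called lay between 6496 and 7376 over all alternatives.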

Other observations

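The genes whose log2 CPM over the 8 mice was most like that of a ligand gene, among 10620 genes with a mean of at least 100 counts, are given as a description, since the genes of a mouse share 1 library and the mice fall into 2 strains. Cdca7, a gene of dividing cells, was most like Cd40 both across the 8 mice (Pearson r = 0.995) and after the mean of each strain was subtracted (r = 0.952). For the other ligand genes the most similar gene differed between these scales. Across the mice it was Tmem168 for Cd80 (0.951), Cdc26 for Cd86 (0.95), Plekhg5 for Icosl (0.975), Oas1a, an interferon-induced gene, for Cd274 (0.959), Hrh1, a histamine receptor, for Pdcd1lg2 (0.969), Adam11 for Tnfsf9 (0.975) and Zfp992 for Cd83 (0.957). After the strain means were subtracted it was Cfl2 for Cd80 (0.965), Thop1 for Cd86 (0.96), Zfyve27 for Icosl (0.969), Mrpl24 for Cd274 (0.975), Washc1 for Pdcd1lg2 (0.989), Fkbp3 for Tnfsf9 (0.968) and Dnajc28 for Cd83 (0.99). Cd70 and Tnfsf4 had too few counts to be included.

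The most abundant genes of the marker lists not named above were H2-Ab1 for conventional dendritic cells (log2 fold change 0.28), Wdfy4 for type 1 (0.85) and Sirpa for type 2 dendritic cells (-0.91), and Tcf4 for plasmacytoid dendritic cells (-0.15, not passed). For lymphocytes they were Ms4a1 of B cells (-0.09, not passed), Xbp1 of plasma cells (-0.39), Cd4 of the T cell list (0.20, not passed) and Gzma of NK cells (-0.06, not passed). For myeloid, erythroid and dividing cells they were Vcam1 of red pulp macrophages (-2.45), Csf1r of monocytes (-2.18), Csf3r of neutrophils (-1.61), Alas2 of erythroid cells (-2.48) and Mki67 of proliferation (1.28). Beside 26.7% higher and 26.6% lower among all genes, 2 of 7 plasmacytoid markers were higher and 2 lower, 3 of 8 type 2 markers were lower and 1 higher, 2 of 6 plasma cell markers were higher and 2 lower, 1 of 8 T cell markers was lower, 6 of 6 NK cell markers did not pass, 3 of 7 monocyte, 3 of 5 neutrophil and 4 of 6 erythroid markers were lower.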
